A study of Arabidopsis thaliana with 4 samples.

Results

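The 36 genes described here encode nuclear subunits of the photosynthetic electron transport chain of Arabidopsis thaliana. They were chosen by locus identifier from what they encode: subunits of photosystem I (PSI, 13 genes) and photosystem II (PSII, 10 genes), the cytochrome b6f complex (2), plastocyanin (2), ferredoxin (2), ferredoxin-NADP reductase (FNR, 2) and the chloroplast ATP synthase (3), together with PGR5 and PGRL1A. Genes of the light-harvesting antenna were left out, and the choice was made with earlier results of these data known. All 36 were among the 24750 genes of the count table, and all 36 had counts above 0 in every library.

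The study sequenced polyadenylated RNA of the accession col-0 with Oxford Nanopore direct RNA sequencing (DRS), in which each read is one native RNA molecule read from its poly(A) tail. There were 2 libraries of floral buds and 2 of seedlings, described as biological replicates of wild-type plants. The floral buds were unopened and came from plants that had been moved to soil and grown for 3 more weeks in long days. The seedlings were 14-day plants grown in the same day length on plates with sucrose. Organ, age and growth medium thus all differ between the stages and cannot be told apart. Within such bulk samples, fewer green cells and less RNA per green cell also cannot be told apart.

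Water is split at PSII, and its electrons pass through the cytochrome b6f complex and plastocyanin to PSI, then through ferredoxin and FNR to NADP. The proton gradient built on the way drives the ATP synthase. PGR5 and PGRL1 act in a cyclic route that returns electrons from ferredoxin to the chain. The reaction centre proteins and several other core subunits are encoded in the chloroplast genome, and the nucleus supplies the extrinsic and many small membrane subunits, which are imported into the chloroplast. No chloroplast gene is in the table, so only the nuclear side of each complex was measured.

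The 4 libraries held 669352 to 796873 estimated counts in floral buds, against 579350 to 620123 in seedlings. The labels were checked against marker genes. All 5 floral organ identity genes were higher in floral buds, with 943 and 767 summed counts in floral buds, against 6 and 3 in seedlings, and AP1, AP3 and AG were at 0 in both seedling libraries. All 5 genes of the tapetum, the nurse tissue of the anther, were higher in floral buds as well, with 2283 and 1735 summed counts in floral buds, against 1 and 3 in seedlings. Of 4 genes known from roots, 2 were lower in floral buds (173 and 125 summed counts in floral buds, 969 and 978 in seedlings), and PYK10, an abundant root β-glucosidase, had 6.23 and 0 CPM in floral buds, against 1375 and 1298 CPM in seedlings. Of 8 genes of the green stroma 6 could be tested, and 4 of these were lower in floral buds by the limits given below. Their median log2 fold change (floral buds over seedlings) was -1.13 over all 6. Their summed counts were 3456 and 2945 in floral buds, against 5046 and 5216 in seedlings. The small Rubisco subunit genes RBCS1A and RBCS3B were listed at 0 in every library. Their relatives RBCS1B and RBCS2B had 1001 and 1120 counts and 1347 and 1434 counts in seedlings. Whether the zeros come from the RNA or from the assignment of reads to genes was not tested, so they are not read as absent expression. These lists differed between the stages beside every result below, and their part in the members' values was not tested.

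The members were lower in floral buds as a group. They took up 2.64% and 2.60% of all counts in floral buds, against 6.44% and 6.68% in seedlings. Summed over the members, the normalized level was 26254 and 24545 counts scaled to 1000000 per library (CPM) in floral buds, against 65897 and 70226 CPM in seedlings, or 25400 ± 1208 CPM against 68062 ± 3061 CPM (SD, n = 2 each). The sum was 2.68-fold higher in seedlings and the libraries of the stages did not overlap. With 2 libraries against 2, the exact permutation test over samples cannot give a p below 0.333, and p was 0.333 here.

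Gene by gene, 28 of the 36 members (77.8%) were differentially expressed genes (DEGs) lower in floral buds, by a false discovery rate (FDR) below 0.05 and a fold change above 2 in edgeR's quasi-likelihood test over 18647 genes. The same limits called 9.52% of all genes tested lower in floral buds. No member was called higher, against 10.3% of all genes, and none was higher at an unadjusted p below 0.05, nor was any called higher by DESeq2 or by limma. Without the fold limit, 33 members were lower, against 11.5% of all genes. Both floral bud libraries lay below both seedling libraries for 34 of 36 members, a pattern seen in 27.0% of all genes, and the opposite pattern, seen in 30.5% of all genes, was found for no member. All 36 log2 fold changes (floral buds over seedlings) were negative, with a median of -1.37, whereas the median was 0.06 over all genes tested and 0.03 over the 1875 genes with a mean of at least 100 CPM.

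The stages differed by more than the replicates for most members. The median absolute log2 ratio between replicate libraries was 0.131 over the members in floral buds, against 0.133 in seedlings. The prior degrees of freedom of the fit were not finite for any member. The p-values thus rest on a spread estimated across genes and not on the scatter between a gene's own replicates. The same holds for the SE values and intervals given below, which come from that fit. When full quantile normalization with limma-voom was used in place of upper-quartile scaling, 19 of the 36 members were called lower, and the median log2 fold change of all 36 was -1.03. The members that lost their call there did so by the fold limit, at -0.30 for PETE2, -0.40 for PSBW, -0.51 for PSBX, -0.71 for PSBP1, -0.76 for PSAL, -0.80 for PSAK, -0.89 for PETC, -0.91 for PSAF, -0.96 for PSBTN and -0.99 for PSBR, and ATPD gained one at -1.01. PSAO, PSBO1 and PSAD1 were still called, at -1.19, -1.12 and -1.03, and the most negative member under that scaling was PSAE1 at -1.63.

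**Figure D1:**
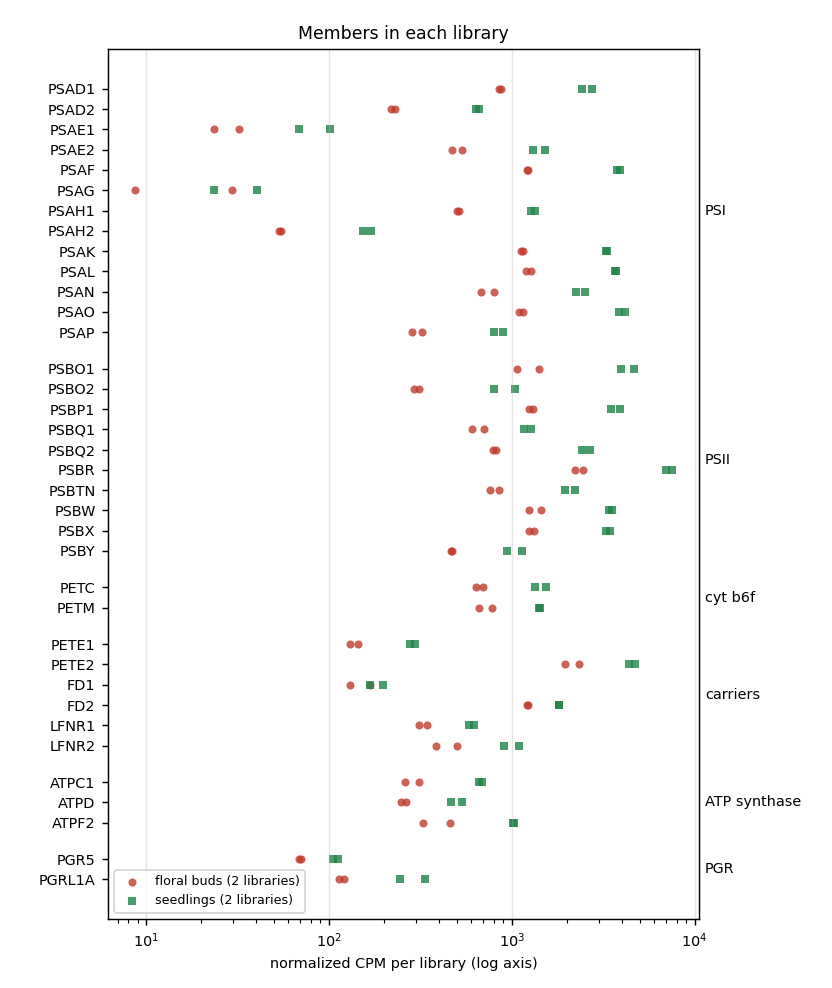
Normalized CPM of the 36 members (rows, grouped by complex) in the 2 floral bud libraries (circles) and the 2 seedling libraries (squares), on a log axis. The floral bud points lie left of the seedling points for 34 members, and they overlap for PSAG and FD1.

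Levels among the members spanned a wide range. Per kilobase of annotated transcript, PSBR was highest in both stages, at 2982 CPM per kb in floral buds, against 9238 CPM per kb in seedlings. In seedlings it was followed by PSAO with 4905, PSBX with 4669 and PSAK with 4276 CPM per kb, and in floral buds by PSBX with 1784, PETE2 with 1585 and PSAK with 1478 CPM per kb. The lowest members per kb in both stages were PSAG (24.6 CPM per kb in floral buds, against 41.2 in seedlings), PSAE1 (35.2, against 106.8) and PGR5 (61.5, against 96.3). PSAG and PSAE1 share 479 and 436 bp with genes on the opposite strand, and reads were assigned without regard to strand. Whether this affected their counts was not tested. PSAH1 shares 788 bp with a gene on the opposite strand that was not analysed here. Its level, 391 CPM per kb in floral buds, against 1003 in seedlings, thus gives no measure of such an effect.

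PSII stands first in the chain. Of its 10 members 9 were lower in floral buds, with a median log2 fold change of -1.46, and their summed level was 11048 and 9998 CPM in floral buds, against 28595 and 31206 CPM in seedlings. PSBO, PSBP and PSBQ form the extrinsic cap that shields the oxygen-evolving manganese cluster in the thylakoid lumen. PSBO1 (AT5G66570), which encodes the main manganese-stabilizing protein, had 1412 and 1068 CPM in floral buds, against 3954 and 4636 CPM in seedlings. The value of -1.79 on the log2 scale (SE 0.12, FDR 7.96e-45) was the most negative after that of PSAO. PSBO2 (AT3G50820), its paralogue, had 313 and 292 CPM in floral buds, against 805 and 1037 CPM in seedlings, a log2 fold change of -1.61 (SE 0.16). PSBP1 (AT1G06680) had a similar change of -1.53 (SE 0.12).

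The PSBQ genes differed from each other. PSBQ2 (AT4G05180) had 787 and 819 CPM in floral buds, against 2422 and 2672 CPM in seedlings, and its log2 fold change was -1.67 (SE 0.13, FDR 3.24e-34). PSBQ1 (AT4G21280) had 701 and 604 CPM in floral buds, against 1172 and 1278 CPM in seedlings. The log2 fold change of -0.91 (SE 0.14, FDR 3.38e-09) stayed within the fold limit, and it was -1.01 and past the limit when floral bud replicate 1 was left out. All 4 libraries thus kept the order of the stages for both genes, with a smaller difference for PSBQ1. With full quantile normalization the values were -0.74 for PSBQ1 and -1.14 for PSBQ2.

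The other PSII members encode small proteins. PSBR (AT1G79040), the most abundant member, encodes a lumenal subunit needed for stable binding of the oxygen-evolving proteins, and its log2 fold change was -1.63 (SE 0.12). PSBX (AT2G06520), PSBTN (AT3G21055) and PSBW (AT2G30570), small subunits of the complex, had values of -1.39, -1.37 and -1.37, but -0.51, -0.96 and -0.40 with full quantile normalization. PSBY (AT1G67740) had the smallest change among the called PSII genes, at -1.14 (SE 0.15).

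The cytochrome b6f members were PETC (AT4G03280), the Rieske iron-sulfur protein, and PETM (AT2G26500), a small membrane subunit. PETC had 700 and 640 CPM in floral buds, against 1336 and 1532 CPM in seedlings, and was called lower at a log2 fold change of -1.10 (SE 0.14, FDR 1.36e-13). PETM had 776 and 662 CPM in floral buds, against 1414 and 1427 CPM in seedlings. Its log2 fold change of -0.98 (SE 0.14, FDR 4.39e-11) fell just within the fold limit, and was -1.09 without floral bud replicate 1. PETC and PETM thus lie on opposite sides of the limit with nearly the same change. PETC was within the limit too, at -0.9997, when libraries were scaled by their size alone.

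Plastocyanin, the soluble copper protein that carries electrons to PSI, is encoded by PETE1 (AT1G76100) and PETE2 (AT1G20340). PETE2 was the major gene, with 2319 and 1952 CPM in floral buds, against 4360 and 4701 CPM in seedlings (log2 fold change -1.08, SE 0.12, FDR 3.42e-18). PETE1 had 145 and 130 CPM in floral buds, against 297 and 278 CPM in seedlings (log2 fold change -1.06, SE 0.20, FDR 1.32e-06). Both were called lower and neither pair of stages overlapped. The PETE2 value was close enough to the limit that it was lost, at -0.99, without floral bud replicate 2, and scaling by library size alone put both genes within it (-0.97 for PETE1 and -0.99 for PETE2). With full quantile normalization PETE2 was at -0.30 (FDR 0.0442 in limma-voom) and PETE1 at -1.09.

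PSI had the largest summed difference of the complexes, 3.05-fold higher in seedlings. Of its 13 members 12 were lower in floral buds, with log2 fold changes between -1.84 and -1.36 and a median of -1.57 over all 13. The summed level was 7992 and 7925 CPM in floral buds, against 23699 and 24884 CPM in seedlings. PSAO (AT1G08380), a membrane subunit that takes part in docking of mobile antenna, had the most negative value of all members. It had 1150 and 1096 CPM in floral buds, against 3869 and 4165 CPM in seedlings, a log2 fold change of -1.84 (SE 0.13, FDR 3.99e-46). PSAN (AT5G64040), a lumenal subunit near the plastocyanin binding site, had 802 and 681 CPM in floral buds, against 2252 and 2528 CPM in seedlings. Its log2 fold change of -1.69 (SE 0.13, FDR 1.99e-34) came next after that of PSBO1.

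PSAD and PSAE form the stromal ridge at which ferredoxin docks. PSAD1 (AT4G02770) had 871 and 849 CPM in floral buds, against 2413 and 2749 CPM in seedlings (log2 fold change -1.59, SE 0.13). PSAD2 (AT1G03130) had 218 and 232 CPM in floral buds, against 635 and 661 CPM in seedlings (log2 fold change -1.53, SE 0.17). The lesser and the greater gene of this pair differed between stages to the same degree within their errors. PSAE2 (AT2G20260) had 537 and 474 CPM in floral buds, against 1311 and 1525 CPM in seedlings (log2 fold change -1.49, SE 0.14). PSAE1 (AT4G28750), far lower in level, had 23.7 and 32.5 CPM in floral buds, against 68.8 and 101.7 CPM in seedlings (log2 fold change -1.61, SE 0.34, FDR 2.00e-05).

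PSAF (AT1G31330), the subunit at which plastocyanin binds, had a log2 fold change of -1.66 (SE 0.13). PSAH, PSAL (AT4G12800) and PSAO lie on the side of PSI where mobile antenna attaches. PSAH1 (AT3G16140) had 499.6 and 517 CPM in floral buds, against 1334 and 1273 CPM in seedlings (log2 fold change -1.36, SE 0.14). PSAH2 (AT1G52230) had 53.6 and 55.1 CPM in floral buds, against 154 and 169 CPM in seedlings (log2 fold change -1.57, SE 0.26). Values for PSAL and PSAK (AT1G30380), a peripheral subunit, were -1.58 and -1.53, and that of PSAP (AT2G46820), a thylakoid curvature protein also named CURT1B, was -1.48. PSAP is counted with PSI here by its PSI name, whereas other curvature proteins are in the list of thylakoid regulation and shape below.

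PSAG (AT1G55670) was the exception within PSI. This gene, related to PSAK and located at the antenna side, had 8.72 and 29.7 CPM in floral buds, against 40.6 and 23.7 CPM in seedlings, or 7 and 21 rounded counts in floral buds, against 23 and 14 in seedlings. The stages overlapped, and the log2 fold change of -0.77 (SE 0.46, FDR 0.239) did not pass the test. It was -1.88 and called when floral bud replicate 2 was left out, so that one library decided the call. The annotated span of PSAG (TAIR10.1, chr1:20802670-20803449, 1 exon, minus strand) wholly contains AT1G55673 on the opposite strand, a gene listed at 0 in every library.

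Ferredoxin, the iron-sulfur protein reduced by PSI, had the smallest differences between the stages. FD2 (AT1G60950), the major leaf ferredoxin, had 1205 and 1227 CPM in floral buds, against 1816 and 1818 CPM in seedlings. Its log2 fold change was -0.58 (SE 0.13, FDR 9.46e-05), so it passed the FDR but not the fold limit. FD1 (AT1G10960) had 168 and 130 CPM in floral buds, against 198 and 168 CPM in seedlings, so the stages overlapped. Its log2 fold change of -0.29 (SE 0.21, FDR 0.363) was the smallest of all members. With full quantile normalization in limma-voom, FD2 was at 0.0044, so that its direction did not hold there.

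FNR passes electrons from ferredoxin to NADP. LFNR2 (AT1G20020) had 384 and 501 CPM in floral buds, against 909 and 1096 CPM in seedlings (log2 fold change -1.18, SE 0.15, FDR 8.98e-14), and without floral bud replicate 1 its value was -0.99 and no longer called. LFNR1 (AT5G66190) had 310 and 346 CPM in floral buds, against 584 and 619 CPM in seedlings, with a log2 fold change of -0.88 (SE 0.16, FDR 9.89e-07). The floral bud libraries were the lower ones for both genes.

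Of the ATP synthase members, ATPF2 (AT4G32260), a subunit of the peripheral stalk, and ATPC1 (AT4G04640), the rotating γ subunit, were called lower at -1.37 (SE 0.15) and -1.24 (SE 0.16). ATPD (AT4G09650), the δ subunit, had 248 and 264 CPM in floral buds, against 537 and 466 CPM in seedlings. A log2 fold change of -0.97 (SE 0.17, FDR 2.08e-07) was within the fold limit, and it passed at -1.04 without floral bud replicate 2 and at -1.07 without seedling replicate 2.

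PGRL1A (AT4G22890) was called lower at -1.30 (SE 0.20, FDR 3.80e-09). PGR5 (AT2G05620) had 68.5 and 70.6 CPM in floral buds, against 105.9 and 112 CPM in seedlings. The stages did not overlap, but the log2 fold change of -0.65 (SE 0.27, FDR 0.0624) missed the FDR limit.

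**Figure D2:**
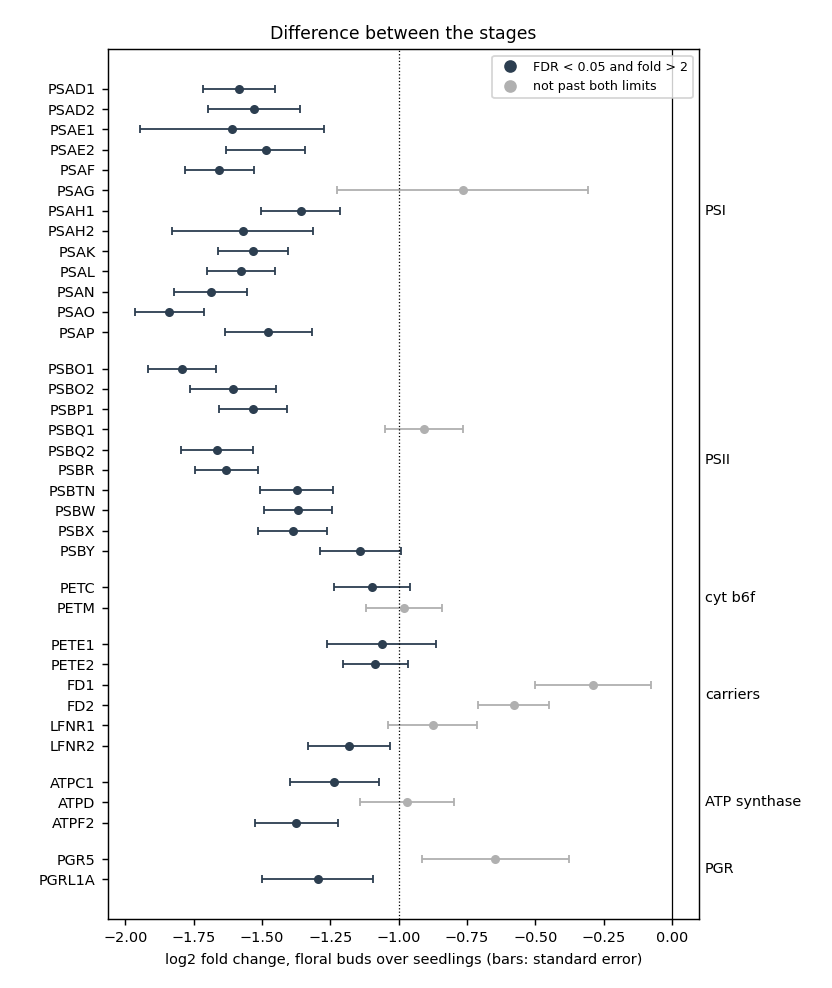
Log2 fold change of each member, floral buds over seedlings, with its standard error, grouped by complex. The dotted line marks a fold of 2 and dark points passed both limits. The points run between -1.84 for PSAO and -0.29 for FD1, and both ferredoxin genes lie closer to 0 than any called gene.

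The makeup of the transcript pool was then compared, since a ratio between members within a library does not depend on how libraries are scaled. PSI genes took 30.4% and 32.3% of all member counts in floral buds, against 35.96% and 35.4% in seedlings. The soluble carriers (plastocyanin, ferredoxin and FNR) took 17.3% and 17.5% in floral buds, against 12.4% and 12.4% in seedlings. The libraries of the stages did not overlap in either share. Shares of PSII were closer together, at 42.1% and 40.7% in floral buds, against 43.4% and 44.4% in seedlings.

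Set against PSI, ferredoxin stood out most. For every 100 PSI counts there were 17.2 and 17.1 ferredoxin counts in floral buds, against 8.50 and 7.98 in seedlings, a 2.08-fold higher ratio in floral buds. Plastocyanin counts per 100 PSI counts were 30.8 and 26.3 in floral buds, against 19.6 and 20.01 in seedlings, and FNR counts were 8.68 and 10.7 in floral buds, against 6.30 and 6.89 in seedlings. These ratios were 1.44-fold and 1.47-fold higher in floral buds. The cytochrome b6f ratio was 18.5 and 16.4 in floral buds, against 11.6 and 11.9 in seedlings, and that of the ATP synthase was 12.7 and 10.7 in floral buds, against 9.49 and 8.61 in seedlings. The ratio of PGR5 and PGRL1A was 2.37 and 2.33 in floral buds, against 1.86 and 1.43 in seedlings. PSII changed least against PSI, with 138 and 126 counts in floral buds, against 121 and 125 in seedlings. All 7 ratios were higher in both floral bud libraries than in both seedling libraries. For PSII the nearest libraries were 126 in floral buds and 125 in seedlings. The p was 0.333 for each, the smallest value the exact permutation test allows here. The ratios share the PSI counts as denominator, and PSI had the largest summed difference of the complexes. Their common direction thus follows from that choice and is not a separate result for each group.

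**Figure D3:**
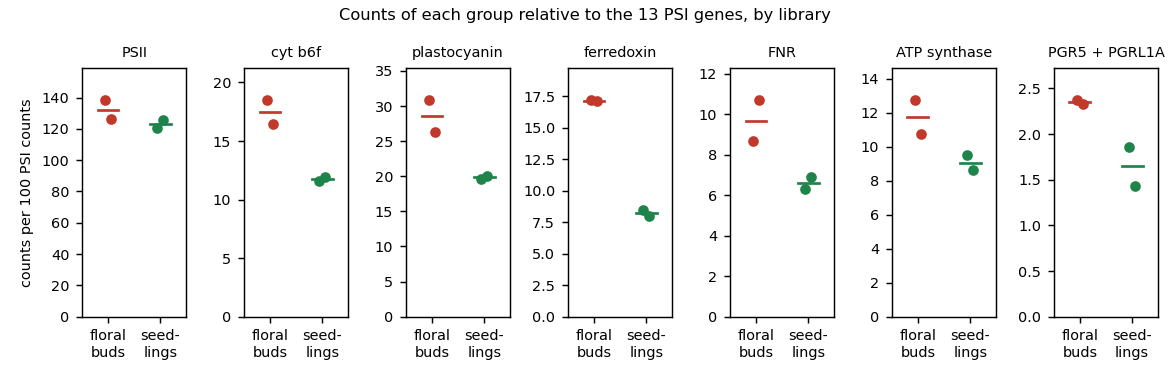
Counts of each group of members per 100 counts of the 13 PSI genes, in each floral bud library (left in each panel) and each seedling library (right), with the mean as a line and each axis starting at 0. Ferredoxin had 17.2 and 17.1 in floral buds, against 8.50 and 7.98 in seedlings, whereas the PSII values of the stages lay close together.

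The 8 pairs of paralogues were compared by the share that one gene took of the pair's counts. Aligned coding sequences of the pairs were 75.0% to 88.0% identical, and no other annotated transcript matched a member at 95% identity over 80% of its length. To show how the copies differ in sequence, the last 30 coding bases of 3 pairs are printed from the RefSeq TAIR10.1 genome, with the bases that differ from the other copy in capitals, for the pair that differed between stages (PSBQ), the pair that differed least from seedling levels (FD) and a pair with few differences (PSAH).
PSBQ1: ttgaacGaAgttcttgccaagctTggttaa
PSBQ2: ttgaacAaTgttcttgccaagctCggttaa
FD1: gaaacccacaaagaagaagCcattAtGtaa
FD2: gaaacccacaaagaagaagAcattGtTtaa
PSAH1: cctaagctcggtcctcgcggcaagctCtGa
PSAH2: cctaagctcggtcctcgcggcaagctTtAa
These stretches lie at chr4:11335558-11335587 (plus strand) for PSBQ1, chr4:2672093-2672122 (minus) for PSBQ2, chr1:3664862-3664891 (plus) for FD1, chr1:22444982-22445011 (plus) for FD2, chr3:5468670-5468699 (minus) for PSAH1 and chr1:19455479-19455508 (plus) for PSAH2.

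In the PSBQ pair the balance differed between the stages. PSBQ1 made up 47.1% and 42.5% of the pair's counts in floral buds, against 32.6% and 32.3% in seedlings, a difference of 12.3 percentage points. Per kilobase of transcript the shares of PSBQ1 averaged 48.5% in floral buds, against 35.8% in seedlings. The libraries did not overlap, and the exact permutation p was 0.333. The log2 fold change of PSBQ1 exceeded that of PSBQ2 by 0.76 (SE 0.19), with an interval of 0.38 to 1.14 that takes the errors of both genes as independent. PSBQ1 lies at chr4:11334352-11335815 on the plus strand with 3 exons, and PSBQ2 at chr4:2671523-2673243 on the minus strand with 4 exons (TAIR10.1).

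For the other pairs no difference in balance was resolved. FD1 took 12.3% and 9.57% of ferredoxin counts in floral buds, against 9.82% and 8.45% in seedlings. LFNR1 took 44.7% and 40.8% of the FNR counts in floral buds, against 39.1% and 36.1% in seedlings, without overlap, but the interval of the difference in log2 fold change, -0.13 to 0.74, included 0. PSAH1 took 90.3% and 90.4% in floral buds, against 89.7% and 88.2% in seedlings, with an interval of -0.37 to 0.79. The shares of PSAD1, PSAE1, PSBO1 and PETE1 overlapped between the stages, and their intervals also included 0. The widest of these, for PSAE1, ran from -0.84 to 0.59, so a difference within it was not detectable at this depth.

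**Figure D4:**
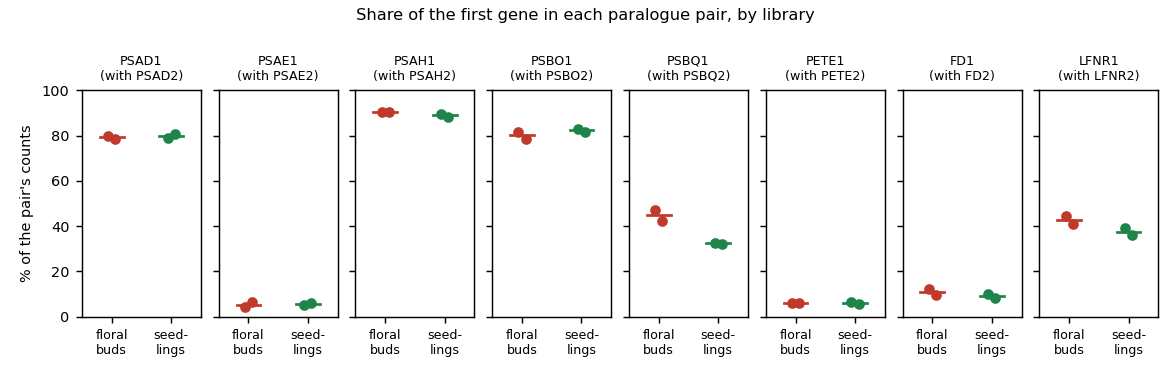
Share of the first-named gene in the counts of each paralogue pair, in percent, for each floral bud library (left in each panel) and each seedling library (right), with the mean as a line. PSBQ1 had 47.1% and 42.5% in floral buds, against 32.6% and 32.3% in seedlings, and the other pairs moved by at most 5.17 percentage points.

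Some members share their position with other genes. PSAH1 overlaps ROPGEF13, on the opposite strand, by 788 bp, and ROPGEF13 was not analysed here. PSAE1 overlaps AT4G28755 by 436 bp on the opposite strand, a gene listed at 0 in every library. FD1 overlaps the end of TMN1 by 78 bp on the same strand, and TMN1 had 71 and 55 counts in floral buds, against 43 and 60 in seedlings. Reads were assigned to genes from overlap of their positions without regard to strand, so reads of such neighbours cannot always be told apart.

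The stretch from 250 bases before to 50 bases after each annotated gene start was searched on both strands for 5 motifs known from plant promoters. The G-box, a binding sequence of light-signalling transcription factors spelled CACGTG, which reads the same on both strands, was present in 12 of 36 members (33.3%) and in 7.68% of the same windows of 27443 genes. The core of the I-box, GATAAG, known from light-regulated promoters, was present in 19 members (52.8%) against 14.6% of all windows. The GT1 core GGTTAA was found in 8 members (22.2%, against 16.7%), the evening element AAAATATCT in 1 (2.78%, against 2.82%) and the TATA box TATAAA in 19 (52.8%, against 52.1%). Each motif was counted on its own even where matches overlapped, as GT1 and I-box matches do in ATPF2. A match is only a description of the letters in the window.

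G-boxes were present in both genes of 4 pairs, PSAE, PSAH, PSBO and PSBQ. One window of 30 bases per gene is printed here 5′ to 3′ along the gene, with the G-box in capitals, to show the bases on either side of it in both copies.
PSAE1: atatgtaatgtaCACGTGgcagatctcaag
PSAE2: gatatgtgatcaCACGTGtcatatcacaag
PSAH1: cctactagattcCACGTGgcattttccaag
PSAH2: ctttttataatcCACGTGgcatttcctaag
PSBO1: ttcagatttcgaCACGTGgcaacaaaaaaa
PSBO2: catcagctttagaCACGTGgctattgatcg
PSBQ1: aaataatcttgcCACGTGgctttaaggcgg
PSBQ2: gaatcaagaaacCACGTGtcaacatattag
In TAIR10.1 these windows are chr4:14204036-14204065 (minus strand) for PSAE1, chr2:8736659-8736688 (plus) for PSAE2, chr3:5469559-5469588 (minus) for PSAH1, chr1:19454719-19454748 (plus) for PSAH2, chr5:26568563-26568592 (plus) for PSBO1, chr3:18892459-18892488 (minus) for PSBO2, chr4:11334257-11334286 (plus) for PSBQ1 and chr4:2673303-2673332 (minus) for PSBQ2.

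Fold changes of members with and without these motifs were set side by side. The 12 members with a G-box had a median log2 fold change of -1.53, and 10 of them were called lower, the others being PSBQ1 and ATPD. The 19 with an I-box core had a median of -1.37, the same as all members, with 17 called, and the 26 with either motif had a median of -1.43, with 23 called. The 10 members with neither a G-box nor an I-box core had a median of -1.08, with 5 called lower. Those called were PSAN, PSBP1, PSAP, PSBX and LFNR2, and those not called were FD1, FD2, PGR5, PSAG and PETM. PSAN, with none of the 5 motifs, was among the 3 most negative members, at -1.69, and PSBQ1, with 2 G-boxes and an I-box core, was within the fold limit. PSBQ2, which also has 2 G-boxes and an I-box core, was called lower at -1.67. These are descriptions, since the motifs were not tested against the fold changes.

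The rest of the pathway differed less than the members, though both were chosen with earlier results of these data known. Lists of 60 further nuclear genes covered assembly factors, subunits of the NDH complex, regulators of the thylakoid and other isoforms of the members, of which 55 could be tested. Of these 8 were lower in floral buds (14.5%, against 9.52% of all genes), 0 were higher in edgeR, also at an unadjusted p below 0.05 and in DESeq2 and limma, and the median log2 fold change was -0.62. The lists had 3131 and 2716 summed counts in floral buds, against 3620 and 3893 in seedlings. The 36 members had 21071 and 17382, against 37333 and 41443. At few counts, changes past the fold limit went uncalled, as for HCF173 (-1.29), TLP18.3 (-1.34) and, in the other direction, NDHT (1.32). The shares called in the lists and in the members are thus not directly comparable. The count of list genes called lower was 4 when libraries were scaled by size alone. It was 3 with full quantile normalization in limma-voom, where the test differed as well as the scaling.

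Among the 9 other isoforms, 2 were lower in floral buds (22.2%, against 9.52% of all genes). RFNR2, a root-type FNR, had 31.1 and 16.9 CPM in floral buds, against 113 and 99.98 CPM in seedlings (log2 fold change -2.12, SE 0.33, FDR 2.20e-09). FDC1, a ferredoxin-like protein with an extended C terminus, had 52.3 and 72.0 CPM in floral buds, against 141 and 120 CPM in seedlings (log2 fold change -1.08, SE 0.26, FDR 3.84e-04). RFNR2 belongs also to the root list given above. The remaining isoforms did not pass the test: the root-type ferredoxin FD3 (-0.49), FDC2 (-0.27), RFNR1 (-0.61), PGRL1B (-0.59), the PSBP-like PPL1 (-0.16), and ATPC2 (-0.36) and PSBP2 (-2.68), both with few counts. FD3 had 150 and 127 CPM in floral buds, against 169 and 219 CPM in seedlings.

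Of 17 listed subunits of the NDH complex, which binds PSI and takes part in cyclic electron flow, 13 could be tested. Of these NDHO and PNSB1 were lower in floral buds, or 15.4%, against 9.52% of all genes. NDHL and PNSB4 were listed at 0 in every library, and NDHS and PNSL2 were under the count filter. As with RBCS1A and RBCS3B, these are not read as absent expression. PNSB1 had 22.4 and 15.5 CPM in floral buds, against 79.4 and 47.4 CPM in seedlings (log2 fold change -1.72, SE 0.39), and NDHO had a value of -1.11 (SE 0.24). Of 12 PSII assembly and repair factors PSB27 was lower, at -1.01 (SE 0.19), or 8.33% of the list, near the 9.52% of all genes. PSI assembly factors gave 0 calls of 5 and cytochrome b6f assembly factors 0 of 6 in edgeR, with 2 and 1 lower at an unadjusted p below 0.05. The share of all genes at that unadjusted limit was not counted, so these 2 counts have no measure beside them. Of 10 genes of thylakoid regulation and shape 3 were lower (30%, against 9.52% of all genes): PBCP, the phosphatase of PSII core proteins (-1.31, SE 0.43), TIC62, which tethers FNR to membranes (-1.06, SE 0.33), and CURT1A, a curvature protein (-1.04, SE 0.14).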

How the data were processed

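The authors base-called the DRS reads with Guppy, mapped them to the genome with Minimap2 (version 2.17 per the submitters' processing notes) and assigned them to genes with TrackCluster, and deposited estimated counts per gene, in which 83.8% of the values above 0 are not whole. A file repeated 3 columns with identical values. The counts were rounded and tested with edgeR 4.0.16 (R 4.3.3; quasi-likelihood test, upper-quartile factors, genes with at least 5 counts in all, Benjamini-Hochberg FDR over 18647 genes). Calls needed FDR below 0.05 and a fold above 2. The study names quantile normalization, for which upper-quartile scaling stood in. CPM are rounded counts scaled by effective library size, and SE was obtained as the size of the change over the root of the F statistic. Intervals are 95% normal intervals. Depths set a floor of 3 counts at 3.77 and 4.48 CPM in floral buds and 5.18 and 4.84 CPM in seedlings. Sums and shares were tested by two-sided exact permutation.

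Alternatives used other scalings, DESeq2 1.42.0, limma 3.58.1, the exact test, other filters, a replicate block and each library left out. The members and lists were chosen with earlier results of these data known. Values in every library are given for both genes of each pair, the 3 most negative and 3 least negative members and all members not called; of the pathway lists, all other isoforms and, in each other list, the 2 called genes with the largest change are named. CURT1A was named after its value was seen. Sequences, coordinates and lengths are from RefSeq TAIR10.1. Transcripts were compared with BLASTN 2.17.0 and coding sequences aligned with Biopython 1.88. The pathway gene PAM68 was not analysed here.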

Additional observations from a re-analysis of the deposited data

How the results depend on the processing

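Every member stayed lower in floral buds under each alternative run, except FD2 at a log2 fold change of 0.0044 with full quantile normalization in limma-voom. The count of members called lower stayed between 19 and 33 of 36 (19 with full quantile normalization, 20 by edgeR's test against a fold of 2, 25 with library size alone, 30 with no count filter, 33 with no fold limit), and 28 to 29 with a library left out. Over all 18647 genes tested, 1775 were called lower and 1912 higher, against 965 and 976 by DESeq2, which called 28 members lower. The counts were 1239 and 1223 with full quantile normalization and 972 and 1154 by the test against a fold of 2. With library size alone they were 1596 and 2171, and with no fold limit 2141 and 2314. With no count filter 20657 genes were tested, and 1619 of these were called lower and 1579 higher. With at least 10 counts asked in each library only 7195 genes were tested, and 589 of these were called lower and 448 higher. PSAG could not be tested where at least 10 counts were asked in each library. The count of pathway genes called lower, 8, was 4 with library size alone, 3 with full quantile normalization, 5 with at least 10 counts in each library, 18 with no fold limit and 1 by the test against a fold of 2, and ranged over 6 to 9 with a library left out. The share differences of PSAD1 (-0.62 points), PSAE1 (-0.30) and PETE1 (0.079) changed sign with a library left out, over -1.35 to 0.115, -1.40 to 0.788 and -0.31 to 0.472 points in that order. Without a sign change, the differences ranged over 0.663 to 2.09 points for PSAH1, -3.90 to -0.54 for PSBO1, 0.442 to 3.12 for FD1, 3.24 to 7.11 for LFNR1 and 9.98 to 14.6 for PSBQ1. The cause of these changes was not tested. With the replicate number as a block, 28 members and 9 pathway genes were called lower. The numbers do not pair the samples (correlation of deviations -0.070 over 8913 genes). Depth limits PSAG (7 to 23 counts a library) most, and 2 libraries a stage limit every sum and share.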
